A study of Monodelphis domestica with 5 samples.

Results

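MCL1, NFKBIZ, PTGS2 and CYP1B1 are genes that cells switch on when they receive a signal, and at or near each lay an H3K9me3 peak inside broad peaks of H3K4me3 and H3K9Ac in opossum fibroblasts. The regions described here are all deposited peaks of 4 histone modifications that shared a base with the H3K9me3 peak at one of these genes, extended by 100000 bases on both sides. There were 119 such peaks among the 308249 peaks of the 4 lists, of which 40 lay around MCL1, 21 around NFKBIZ, 27 around PTGS2 and 31 around CYP1B1. By mark, 50 were peaks of H3K4me3, 37 of H3K9Ac, 28 of H3K9me3 and 4 of H3K27me3. The 4 H3K9me3 peaks were picked with their scores and their overlap with the active marks already known, so these values are a description and no test was made on them. At the limit of the windows, the farthest peak inside was an H3K9me3 peak of the CYP1B1 window with a score of 35.3, 99992 bases from the nested peak. The nearest peak outside was an H3K9Ac peak of the PTGS2 locus with a score of 316, at 100924 bases.

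The chromatin came from primary ear fibroblasts of a single adult male of Monodelphis domestica, whose mother was of stock LL1 and whose father was of stock LL2, grown for 4 to 6 passages by the labels. The Methods describe low-passage cells with a limit below the upper end of that range, and the difference was not resolved here. Native chromatin, digested with micrococcal nuclease and not cross-linked, gave 5 libraries, namely 4 precipitates (1 per modification) and the input, for which no peaks are listed. The study used this male to look for promoters that carry marks of activation and of repression at once, as candidates for imprinting. With 1 animal and no replicate, no difference below has a replicate error, and neighbours in any order of values cannot be said to differ. The lists hold peaks without read counts, so the depth behind a peak is unknown from them.

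H3K4me3 and H3K9Ac are marks of activation (MOAs), which gather at the start sites of genes that are transcribed or ready to be transcribed. H3K9me3 and H3K27me3 are marks of repression (MORs), the first typical of heterochromatin and silenced repeats and the second laid down by Polycomb proteins. H3K9me3 and H3K9Ac modify the same lysine and so cannot sit on one histone tail, and peak lists do not separate the alleles, cells and neighbouring nucleosomes that contribute to a peak. MCL1 is a short-lived member of the BCL2 family that keeps cells from apoptosis. NFKBIZ encodes IκBζ, a nuclear IκB protein induced by inflammatory signals that steers the later genes of the NF-κB response. PTGS2 encodes the inducible cyclooxygenase that makes prostaglandin precursors, and CYP1B1 a cytochrome P450 that oxidises steroids and xenobiotics and is induced through the aryl hydrocarbon receptor.

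At each of the 4 genes the H3K9me3 peak lay wholly inside a single H3K4me3 peak and a single H3K9Ac peak, so 100% of its bases were shared by all 3 marks. Of all 159734 H3K9me3 peaks, 0.973% shared at least 1 base with both MOAs and 0.148% lay wholly inside both. The genes were chosen on this overlap, so nothing is read from the count of 4. The score of a peak is the negative log10 of its MACS p-value multiplied by 10. Most of the strongest peaks share the value 3100, and scores of 3100 or more are called the ceiling here. The overlapping H3K4me3 and H3K9Ac peaks were at the ceiling at all 4 genes, whereas 7.35% of H3K4me3 peaks and 2.62% of H3K9Ac peaks in the whole lists were there. Among the 1555 H3K9me3 peaks that shared a base with both MOAs, 10.3% had both of these partners at the ceiling. Among the 237 that lay wholly inside both MOAs, as these 4 did, 123 had both partners at the ceiling. The ceiling scores were thus not particular to the 4 genes.

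**Figure D1:**
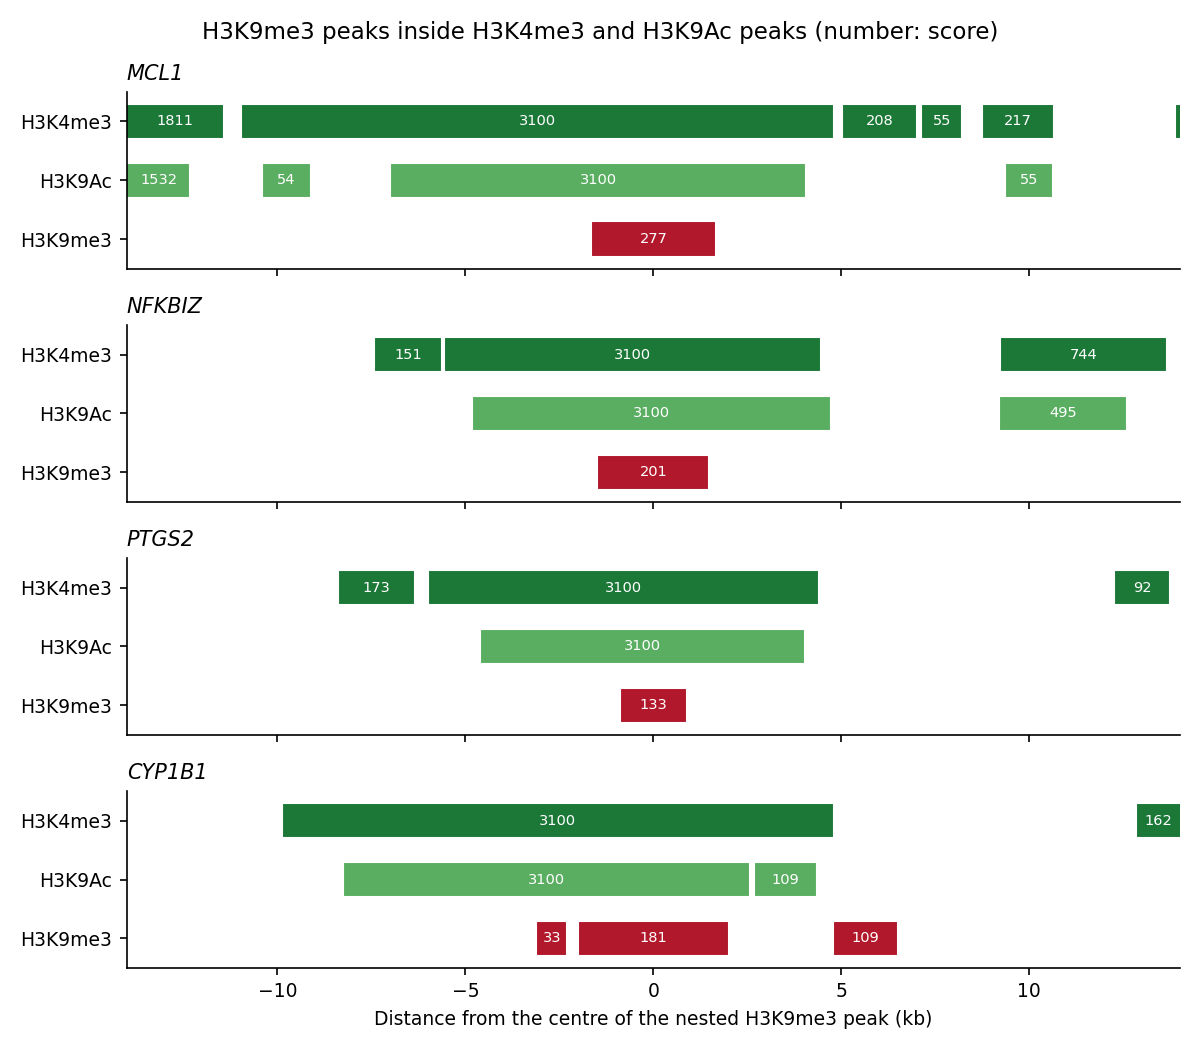
Peaks of H3K4me3, H3K9Ac and H3K9me3 within 14 kb of the centre of the nested H3K9me3 peak at each gene, drawn as bars along the distance in kb, with the score of each peak in its bar. In all 4 panels the central H3K9me3 bar lies between both ends of an H3K4me3 bar and an H3K9Ac bar with scores of 3100, and the CYP1B1 panel has 2 further H3K9me3 bars.

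The MOA peaks were among the broadest of their lists. The H3K4me3 peak was 15782 bases wide at MCL1, 14678 at CYP1B1, 10412 at PTGS2 and 10044 at NFKBIZ, against a median of 1983 bases over the list, so that MCL1 ranked 194th and NFKBIZ 898th of 79412 by width. All 4 passed 10000 bases, as did 1.16% of H3K4me3 peaks. The H3K9Ac peak was 11075 bases wide at MCL1, 10835 at CYP1B1, 9537 at NFKBIZ and 8661 at PTGS2, against a median of 2061. Most strong or broad H3K4me3 peaks held no H3K9me3 peak. Of all 79412 H3K4me3 peaks, 8.07% shared a base with any H3K9me3 peak. Of the 5840 at the ceiling 6.13% did, below that share. Of the 918 that were at least 10000 bases wide, as at these 4 genes, 26.9% did, above that share.

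The H3K9me3 peaks themselves were strong for their list, though far from the ceiling. The score was 277 at MCL1 (the authors' p = 1.85e-28), 201 at NFKBIZ (7.6e-21), 181 at CYP1B1 (7.64e-19) and 133 at PTGS2 (4.53e-14), against a median of 53.3 over all H3K9me3 peaks. MCL1 thus had a higher score than 97.2% of H3K9me3 peaks, NFKBIZ than 95.1%, CYP1B1 than 94.0% and PTGS2 than 89.5%. All 4 had p of at most 1e-10, which 17.9% of the list had. The order by width was different, with 4010 bases at CYP1B1, 3322 at MCL1, 2984 at NFKBIZ and 1795 at PTGS2, the last of which was wider than 65.4% of the list and the first than 95.8%.

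**Figure D2:**
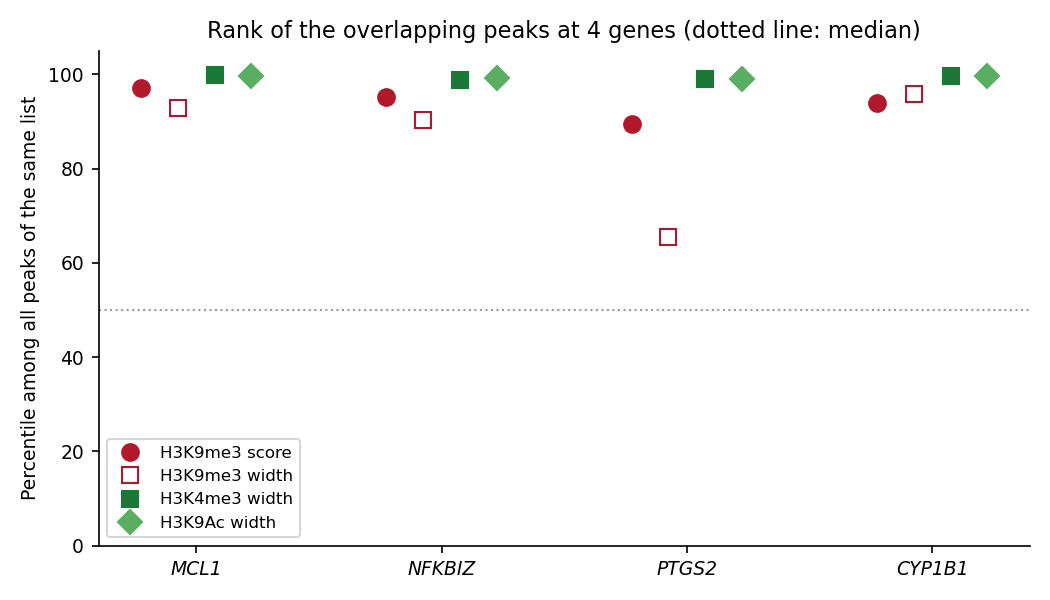
Percentile of the overlapping peaks at each gene among all peaks of the same list, for the score and width of H3K9me3 and the width of H3K4me3 and H3K9Ac. The MOA widths lie between 98.9 and 99.8, the H3K9me3 scores between 89.5 and 97.2, and the H3K9me3 width of PTGS2 is lowest at 65.4.

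Within the set of 1555 concurrently marked H3K9me3 peaks, where the median score was 70.5, MCL1 ranked 146th by score, NFKBIZ 228th, CYP1B1 268th and PTGS2 397th. Among the 237 that lay wholly inside both MOAs the ranks were 11, 22, 27 and 37 in the same order. There the median score was 53.4 and the median width 1363 bases, so all 4 genes were above both medians. The broad H3K4me3 peaks were not particular to these genes, since the median width of the H3K4me3 peak was 10879 bases over the 237 and 15314 over the 123 of them with both MOA peaks at the ceiling. NFKBIZ and PTGS2 were below both of these widths and CYP1B1 was below the second. In the narrower set of 110 that also had both MOA peaks at the ceiling and an H3K4me3 peak of at least 10000 bases, MCL1 ranked 7th, NFKBIZ 17th, CYP1B1 22nd and PTGS2 29th.

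MCL1 (MonDom5 chromosome 2) showed the densest active surroundings. The H3K9me3 peak ran from 495753023 to 495756344, inside an H3K9Ac peak from 495747681 to 495758755 and an H3K4me3 peak from 495743720 to 495759501. The repressive peak was off centre, with 9303 bases of H3K4me3 on its lower side and 3157 on its upper side, and its middle was 69.5% of the way along the H3K4me3 peak. It took up 21% of the width of the H3K4me3 peak. The study lists a 3′ region for each candidate gene, which was 1001 bases long for each of these 4. That of MCL1 was covered over its whole length by H3K4me3, H3K9Ac and H3K9me3 peaks. A weak H3K9Ac peak from 495744263 to 495745592 (score 54.1) lay inside the same H3K4me3 peak, at its lower end.

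Around MCL1 there were 19 H3K4me3 and 16 H3K9Ac peaks, which covered 79.2 kb and 58.0 kb of the window, and every H3K9Ac peak shared a base with H3K4me3. The next broadest H3K4me3 peak, from 495772230 to 495785037, was 12808 bases wide with a score of 2580 and held 2 H3K9Ac peaks with scores of 1729 and 1168 but no H3K9me3. The next in score, 3092, ran from 495810148 to 495813756 and also had no H3K9me3. The other 3 H3K9me3 peaks all lay on the upper side, the nearest 67.9 kb away from 495824280 to 495825618 with a score of 52.2. The strongest of them, from 495829142 to 495831622 with a score of 155, touched an H3K4me3 peak by 99 of its 2481 bases. A single H3K27me3 peak from 495670625 to 495671966 had a score of 42.8 and lay 81.1 kb from the nested peak, clear of the other marks.

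NFKBIZ (chromosome 4) had the most symmetrical arrangement. Its H3K9me3 peak ran from 62102686 to 62105669, with 3324 bases of H3K9Ac below it and 3229 above it, and its middle was 50.5% of the way along the H3K9Ac peak. The H3K9Ac peak ran from 62099362 to 62108898 and the H3K4me3 peak from 62098598 to 62108641. NFKBIZ was the only gene of the 4 at which H3K9Ac reached past H3K4me3, by 257 bases on the upper side, and the active peaks matched closely, with 92.4% of the H3K4me3 peak inside H3K9Ac. The study's 3′ region for NFKBIZ lay 4778 bases below the H3K9me3 peak and held H3K4me3 over its whole length but neither H3K9Ac nor H3K9me3. The listed region of another candidate, the snoRNA gene SNORA2, lay wholly inside the H3K9me3 peak itself, so the peak called that of NFKBIZ here was nearer to SNORA2 by these regions, and the gene it belongs to was not resolved. The H3K4me3 at the 3′ region of NFKBIZ belonged to a separate weaker peak from 62096759 to 62098555, with a score of 151.

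The NFKBIZ window held 10 H3K4me3 and 9 H3K9Ac peaks, and a gap without any active peak stretched on the lower side from 62035554 to 62096759. On the upper side a series of 5 H3K4me3 peaks, each with H3K9Ac, followed out to 62168816. One of them (62150091 to 62155588) was also at the ceiling and carried an H3K9Ac peak with a score of 2673, without H3K9me3. The only other H3K9me3 peak, from 62080855 to 62085569, lay in the gap, 17.1 kb below the nested peak. It was wider than the nested peak, at 4715 bases, but weaker, with a score of 71.9. No H3K27me3 peak lay in the window, and the nearest was 167 kb away with a score of 69.2.

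PTGS2 (chromosome 2) had the narrowest and weakest of the 4 H3K9me3 peaks, from 82231433 to 82233227, inside an H3K9Ac peak from 82227716 to 82236376 and an H3K4me3 peak from 82226338 to 82236749. It filled 17.2% of the H3K4me3 peak and 20.7% of the H3K9Ac peak, and lay near the middle of both, at 57.5% and 53.3% of their lengths. The listed 3′ region of PTGS2 lay 4112 bases below the H3K9me3 peak and was covered to 98.2% by H3K4me3 and not at all by H3K9Ac or H3K9me3.

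Apart from this broad site, H3K4me3 and H3K9Ac around PTGS2 stood differently in their lists. The median score of the other 13 H3K4me3 peaks was 159, below the list median of 226, and the highest was 764. All of the other 6 H3K9Ac peaks lay above their list median of 223, with scores from 505 to 2975 and a median of 1010. The highest of them ran from 82152022 to 82155606, above 97.1% of the list. The other 5 H3K9me3 peaks scored between 41.1 and 71.6 and none shared a base with an active mark. Those with a score above 50 ran from 82260225 to 82261614 (61.5), 82319069 to 82321692 (56.7) and 82325555 to 82327270 (71.6). No H3K27me3 peak lay in the window, and the nearest was 232 kb away with a score of 70.2.

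CYP1B1 (chromosome 1) stood in different surroundings, with few active peaks and many repressive ones. Its H3K9me3 peak was the widest of the 4, from 663117201 to 663121210, inside an H3K9Ac peak from 663110941 to 663121775 and an H3K4me3 peak from 663109321 to 663123998. It sat toward the upper end of the H3K9Ac peak, with 6260 bases below it and 565 above, and a second H3K9Ac peak from 663121877 to 663123546 (score 109) followed within the same H3K4me3 peak. A second, weak H3K9me3 peak from 663116084 to 663116916, 833 bases wide and scored at 33.1, lay wholly inside both MOA peaks 284 bases from the first. One more, from 663123994 to 663125705 with a score of 109, met the upper end of the H3K4me3 peak with 5 shared bases. The study's 3′ region for CYP1B1 was covered by H3K4me3 over its whole length, by H3K9Ac over 89.9% and by H3K9me3 over 7.79%.

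In the CYP1B1 window 16 H3K9me3 peaks covered 36.2 kb, more than the 25.2 kb under its 7 H3K4me3 peaks. A run of 4 H3K9me3 peaks, with gaps of under 1000 bases, spanned 13158 bases from 663088271 to 663101428 and held the highest H3K9me3 score of the 4 windows, 486. The second highest, 362, belonged to the same run, from 663092331 to 663096664. Other H3K9me3 peaks with high scores ran from 663163144 to 663165355 (353), from 663038204 to 663041251 (286) and from 663133905 to 663138102 (243). Apart from the peak of 109 described above, the remaining ones with scores above 50 ran from 663096808 to 663099532 (215), 663041268 to 663044281 (162), 663070043 to 663071531 (89.3) and 663171873 to 663173232 (71.5). In all, 6 H3K9me3 peaks in the window scored higher than the nested one, whereas at MCL1, NFKBIZ and PTGS2 the nested peak had the highest H3K9me3 score of its window. The other 6 H3K4me3 peaks had scores from 81.3 to 397, and 2 of them shared a base with H3K9Ac. The 3 H3K27me3 peaks had scores of 60.6, 49.9 and 37.4, against a list median of 44.5, which placed them above 72.4%, 59.7% and 28.8% of the list. The first of them, from 663091994 to 663093766, shared 1436 bases with an H3K9me3 peak of the run.

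**Figure D3:**
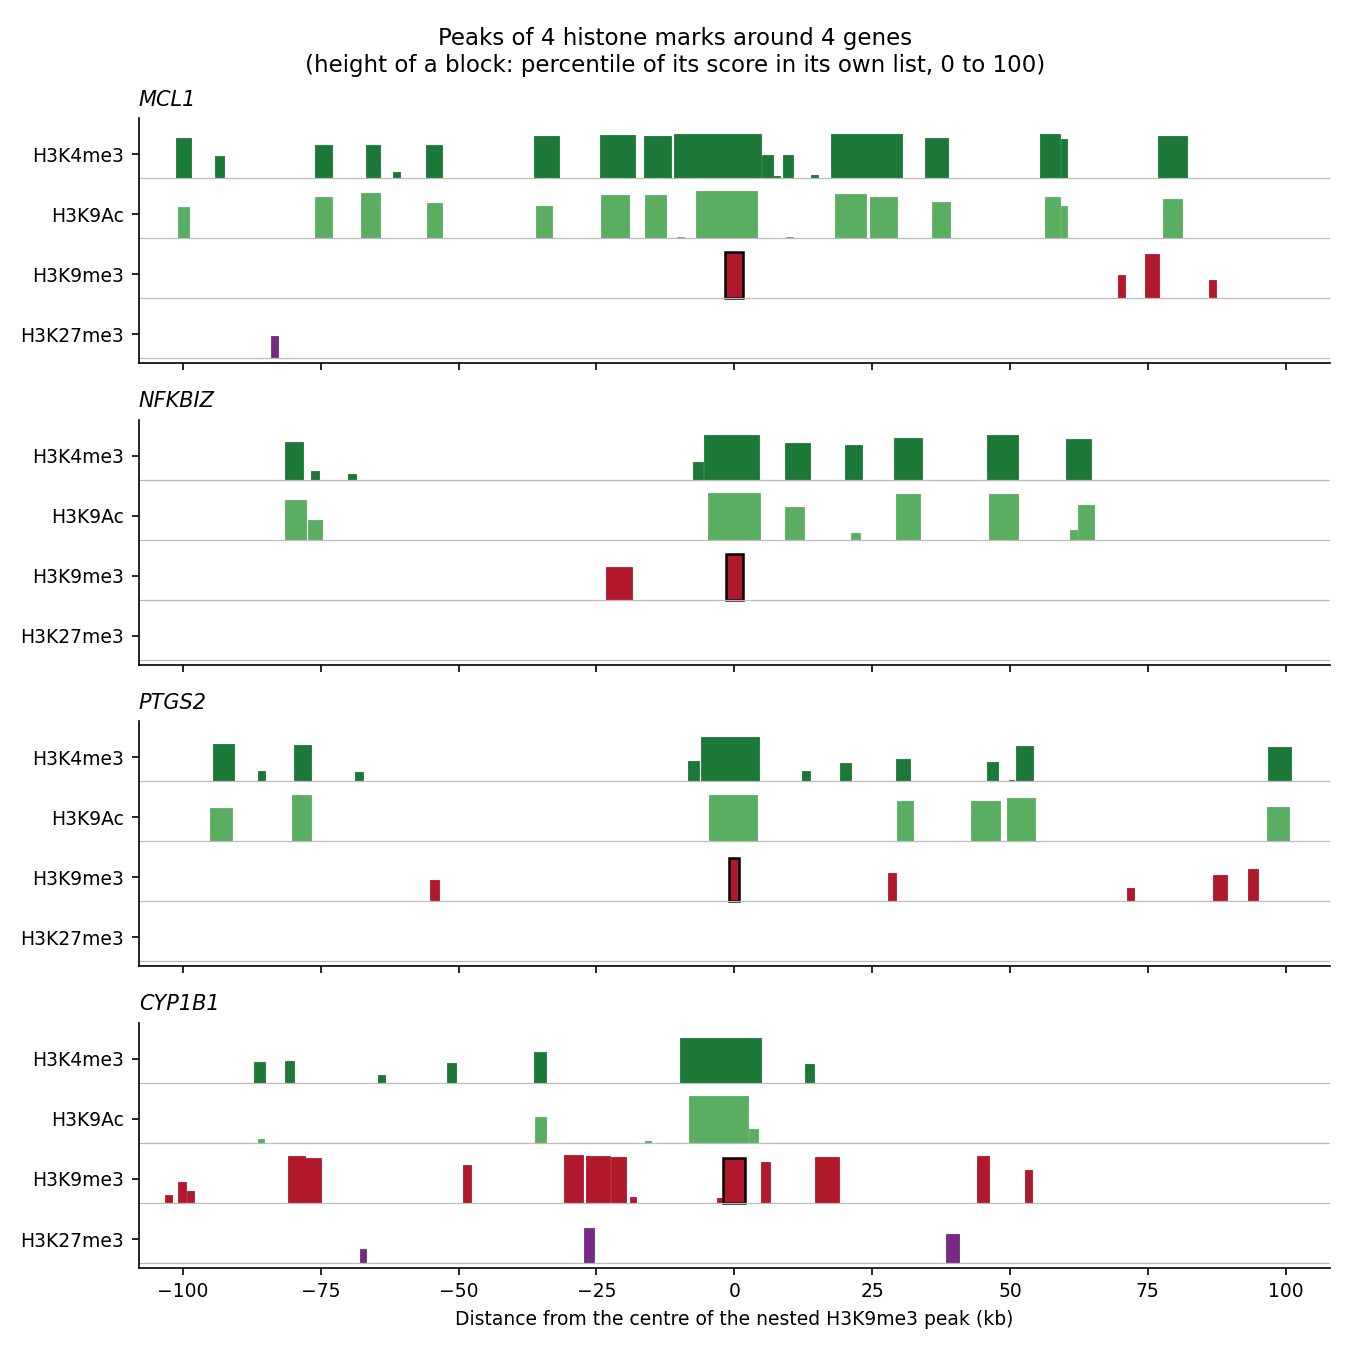
All peaks of the 4 marks in the windows of the 4 genes, by distance in kb from the centre of the nested H3K9me3 peak, outlined in black; the height of a block is the percentile of its score in its own list. MCL1 has 19 H3K4me3 peaks and 4 of H3K9me3, and CYP1B1 has 7 and 16.

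Set beside windows of the same reach around the 1507 concurrently marked H3K9me3 peaks on placed chromosomes, the 4 genes fell at different ends. These windows had a median of 10 H3K4me3, 7 H3K9Ac and 7 H3K9me3 peaks, include the 4 genes, and overlap one another where sites are close. MCL1 had more H3K4me3 peaks than 90.7% of them and more H3K9Ac peaks than 94.0%, and fewer H3K9me3 peaks than 75.7%. NFKBIZ was near the middle for H3K4me3, while 93.0% of the windows had more H3K9me3 peaks than its 2. PTGS2 lay between, with 14 H3K4me3, 7 H3K9Ac and 6 H3K9me3 peaks. CYP1B1 had more H3K9me3 peaks than 90.7% of the windows and fewer H3K4me3 peaks than 71.2%. For H3K27me3, 49.2% of the windows had no peak, as at NFKBIZ and PTGS2, and 11.9% had more than the 3 at CYP1B1.

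**Figure D4:**
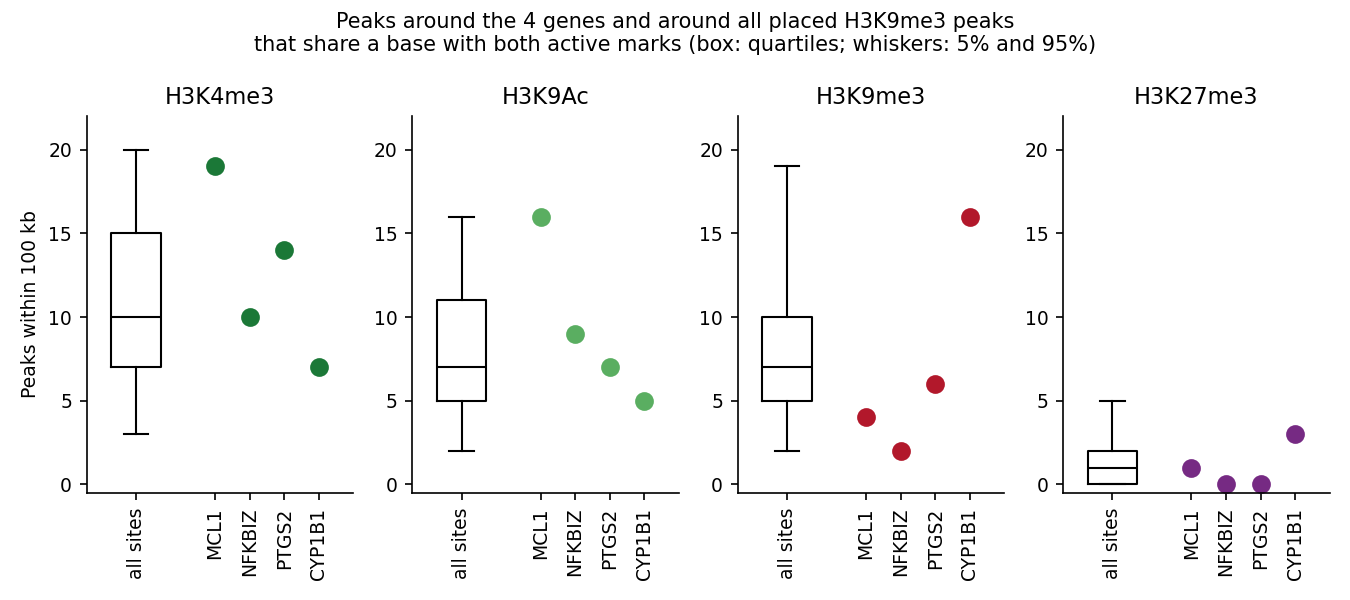
Number of peaks within 100 kb of the nested H3K9me3 peak at each gene (points), beside the windows around all 1507 placed H3K9me3 peaks that share a base with both active marks (box: quartiles with the median; whiskers: 5% and 95%). MCL1 is high for H3K4me3 and H3K9Ac (19 and 16 peaks), and CYP1B1 is high for H3K9me3 (16 peaks).

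Across the 4 windows 33 of 50 H3K4me3 peaks shared a base with H3K9Ac (66.0%, exact 95% binomial interval 51.2% to 78.8%), against 57.1% in the whole list. In the other direction 36 of 37 H3K9Ac peaks shared a base with H3K4me3 (97.3%, 85.8% to 99.9%), against 90.0%. Both counts include the MOA peaks that hold the 4 nested peaks, and these overlap each other by the choice of sites. Their intervals are therefore a description only. These shares are near those of the whole lists. The exception was a weak H3K9Ac peak at CYP1B1, from 663102935 to 663104167 with a score of 57.5, which was chosen after its value was seen. Leaving out the 4 nested peaks, 4 of 24 H3K9me3 peaks touched H3K4me3 (16.7%, 4.74% to 37.4%), against 3.83% of the list. One was at MCL1 and 3 were at CYP1B1, of which 2 met the broad H3K4me3 peak of the gene itself. The windows were centred on sites picked for such overlap, and peaks of 1 window are not independent. No enrichment is therefore read from this share. Of the 29 other H3K4me3 peaks with H3K9Ac in the windows, 1 shared a base with H3K9me3 (3.45%, 0.0873% to 17.8%), a share near the 4.57% of all 45331 such peaks in the list. Of the 4 H3K27me3 peaks, 1 passed p of at most 1e-05, which 40.2% of the list did. Of these 4, 0 touched H3K4me3 (interval up to 60.2%), against 13.3% of the list, and 1 touched H3K9me3 (0.631% to 80.6%), against 53.3%, so 4 peaks do not set the windows apart.

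The study's table of candidates gives positions for other genes, and 16 of them, grouped here as responding to stimuli, were examined in the same way. Their induction was not measured, and the grouping may not hold for each of them, PPP1R15B included. For 12 of the 16 an H3K9me3 peak that shared a base with both MOAs lay within 10 kb of the listed 3′ region, and at all 12 it lay wholly inside both MOA peaks and both of these were at the ceiling. FOSL2, DUSP5, F3 and IFIH1 had no such peak within this distance, and those nearest to them did not meet both conditions. The distance was counted from the 3′ region, whereas the study defined its candidates by marks at promoters. A long gene can therefore exceed the limit, and these genes cannot be said to lack a nested peak. The peak nearest to F3, at 11003 bases, and that nearest to FOSL2, at 23.9 kb, lay wholly inside both MOAs, but their H3K9Ac peaks had scores of 2901 and 2900, below the ceiling. The peak nearest to DUSP5, at 12.3 kb, had both MOAs at the ceiling but 4.03% of its bases inside both, and at IFIH1, at 93.5 kb, the share was 9.4%. Just within the limit, the peak of CCNL1 lay at 9.36 kb. The study selected its candidates on these marks in these libraries, so the counts are no independent evidence of the pattern. As a background, 237 of the 1555 H3K9me3 peaks that shared a base with both MOAs lay wholly inside both. Among those 237, 123 had both MOA peaks at the ceiling. The share over the study's other candidates was not computed. Nesting under ceiling peaks is therefore not read as a trait of genes that respond to stimuli. The 4 genes described were picked with their scores known, so no contrast in score with the 12 is read. The H3K9me3 peaks at the 12 genes had lower scores, from 34.4 to 133 with a median of 63.3. Of the 12, 3 passed p of at most 1e-10. The strongest was at BHLHE40, a transcription factor of the circadian and hypoxia responses, with a score of 132.9 just under the 133.4 of PTGS2. ID1 and ID2, inhibitors of helix-loop-helix transcription factors, followed with 119 and 112. JUNB, a subunit of AP-1, had a score of 79.6, MYC one of 45.2 and CEBPB one of 47.2. At DUSP6, the phosphatase that restrains ERK, the score was lowest, at 34.4. The H3K4me3 peaks at these 12 genes were 6967 to 16781 bases wide with a median of 10083, a range that includes the 4 genes described above.

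**Figure D5:**
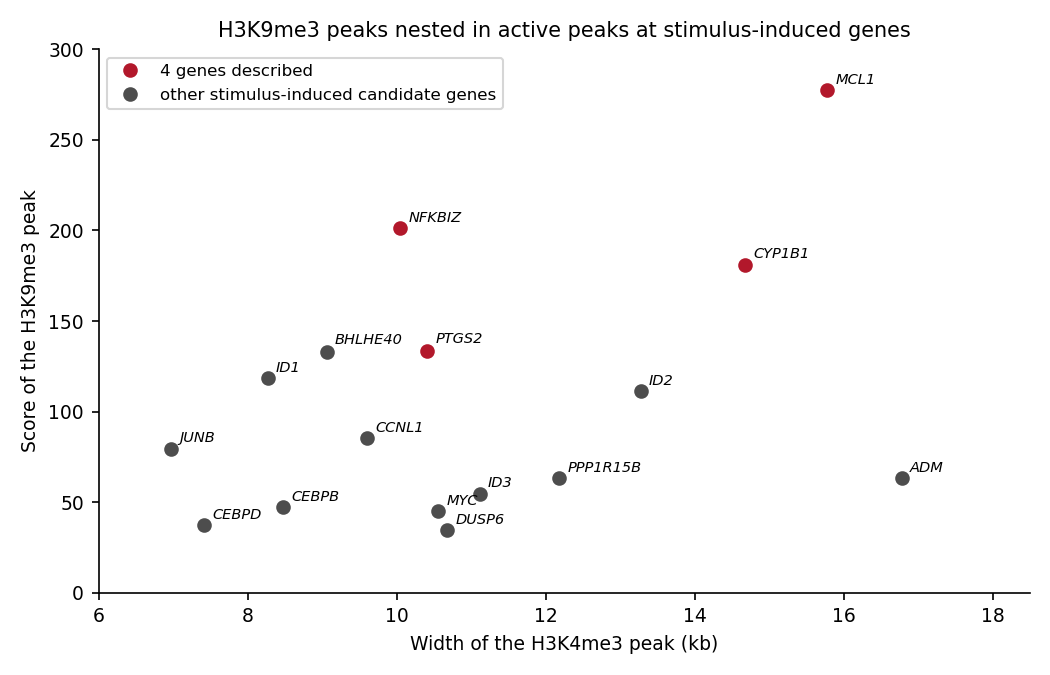
Score of the H3K9me3 peak against the width in kb of the H3K4me3 peak that holds it, for the 4 genes described and 12 other candidates. These 12 had such a peak within 10 kb of the listed 3′ region and were grouped here as stimulus-induced, which was not tested. The 4 genes have scores from 133 to 277 and the others from 34.4 to 133, while the widths overlap. The 4 were picked with their scores known, so the difference in score is not evidence about the genes.

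By the RefSeq table of the later assembly mMonDom1, used for names alone, MCL1 lies between ADAMTSL4 and ENSA, and PTGS2 has PDC on one side and PLA2G4A, the phospholipase that releases its substrate arachidonic acid, among the protein-coding genes on the other. NFKBIZ lies next to NXPE3. CYP1B1 has no entry under that symbol. Which of the other active peaks belong to these neighbours was not analysed here, nor were promoters and CpG islands. No candidate of the study other than SNORA2 and the 4 genes had a listed region in the windows.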

How the data were processed

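Native ChIP-seq was carried out on ear fibroblasts of 1 opossum male with 4 antibodies and an input. By the Methods, the authors aligned quality-filtered reads to the MonDom5 assembly (Bowtie, run in Galaxy), and MACS then called peaks per library with the input as control. The submitters' processing notes name CASAVA 1.7, Bowtie 1.1.2 and MACS 1.0.1. The deposited lists give 1 row per peak with a score (negative log10 of the MACS p-value, multiplied by 10). H3K4me3 and H3K9Ac scores start at 50 (p of 1e-05), and those of the MORs at 30 (p of 0.001). Scores depend on depth and width and were ranked only within a list.

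Samples were grouped by antibody from their titles. Python 3.11.15 with pandas 2.3.3, numpy 2.4.6 and scipy 1.17.1 read the lists, with starts counted from 1. In 2 H3K9me3 peaks a start below 0 was set to 0. Every deposited peak was kept, and peaks overlapped if they shared 1 base. A percentile is the share of peaks with a lower value. Overlap code was tested on simulated peaks. Intervals are exact binomial, treat peaks as independent and cover counting error only. No test was made between marks. Positions of 3′ regions came from the study's primer table, read from page images. The genes, the list of 16 other genes and all comparisons were chosen with earlier results of these data known. Peaks named are those that overlap the nested peaks, the strongest of each mark, all H3K27me3 peaks and other H3K9me3 peaks with scores above 50, together with a few that were named after their values were seen. Alternatives were set for window, threshold, merging, ranking set and overlap. Promoter motifs were planned but not analysed here.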

Additional observations from a re-analysis of the deposited data

How the results depend on the processing

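The 17 results gave 54 values under other settings. By limits of 1.5 times for counts and the 95% binomial interval for percentiles, 35 of these moved, 19 did not, and 0 changed direction. Of the 19, 12 could not have changed, because the covering peaks were at the ceiling, merging only widens peaks, the other overlaps were looser and the MOA lists start at 50, so they say nothing about stability. Windows of 50000 bases held 28 H3K4me3, 22 H3K9Ac, 15 H3K9me3 and 2 H3K27me3 peaks, and windows of 200000 bases held 95, 67, 67 and 11. With scores of at least 100 the windows kept 13 H3K9me3 and 0 H3K27me3 peaks, and with scores of at least 50 they kept 1 H3K27me3 peak. In the order MCL1, NFKBIZ, PTGS2 and CYP1B1, the score percentile of the H3K9me3 peak was 95, 91.0, 80.9 and 89.1 among peaks with a score of at least 50, 98.0, 96.1, 91.0 and 95.2 on placed chromosomes, and 90.6, 85.3, 74.5 and 82.8 among peaks sharing a base with both MOAs. The width percentile was 87.3, 82.7, 40.5 and 92.4 in the first set, 94.7, 92.2, 67.0 and 97.4 in the second, and 90.6, 87.2, 62.4 and 93.8 in the third, so that PTGS2 alone fell below the median width, among peaks with a score of at least 50. The alternatives define these shifts by their own construction, as they change the peaks counted or ranked. No paired analysis was possible because each mark had a single library. Depth limits what can be said of weak peaks, as the lists hold no read counts and absence of a peak says only that none passed the authors' threshold.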
